A study of Mus musculus with 16 samples.

Results

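DNA methylation was compared between mouse B and T cells at 10 genes known for their use at progenitor stages of lymphoid development: *Rag1*, *Rag2*, *Dntt*, *Ptcra*, *Igll1*, *Vpreb1*, *Vpreb3*, *Kit*, *Flt3* and *Cd34*. The genes were chosen by name, from 20807 autosomal protein-coding genes of the GENCODE vM21 annotation of mm10, and all 10 could be measured. Methylation was read by whole genome bisulphite sequencing (WGBS) of 16 libraries from the spleens of C57BL/6J mice aged 6 to 8 weeks, 8 libraries of CD43- resting B cells and 8 of CD4+CD62L+ naive T cells. Both cell types were sorted on magnetic columns, the B cells by removing cells that carry CD43, CD4 or Ter-119, and the DNA came from pooled mice. The labels name no mutation, transgene or treatment. Each cell type had 4 male and 4 female libraries, and each sex of a cell type had 2 bisulphite (BS) libraries, which read 5-methylcytosine and 5-hydroxymethylcytosine alike, and 2 oxidative bisulphite (oxBS) libraries, which read 5-methylcytosine alone. The labels do not say which libraries came from the same mice or DNA, and the protocol oxidised part of a prepared sample, so a BS and an oxBS library may share DNA. The p-values below measure only the spread between these libraries.

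Lymphoid progenitors assemble their antigen receptor genes by cutting and joining gene segments. The RAG1 and RAG2 proteins form the recombinase that cuts, and terminal deoxynucleotidyl transferase, the product of *Dntt*, adds bases without a template at the joins. Before a light chain or an α chain is available, a B cell precursor tests its heavy chain with a surrogate light chain made from *Igll1* (λ5) and *Vpreb1*, and a T cell precursor tests its β chain with the pre-T cell receptor α chain made from *Ptcra*. *Kit* and *Flt3* encode growth factor receptors of stem cells and early progenitors, and *Cd34* encodes a surface sialomucin that marks them. Resting splenic B cells and naive T cells are mature cells that have passed these stages. Low methylation at a gene start or enhancer is common where regulatory proteins have bound, and RNA was not analysed here. In sorted cells measured in bulk, a level between 0% and 100% cannot be told apart from a mixture of methylated and unmethylated cells or alleles.

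A methylation level is the percentage of methylated calls among all calls over the CpGs of a window in a library, and the calls of 8 libraries were also pooled. Libraries listed between 123693203 and 171130063 calls, or between 5.83 and 8.07 calls per autosomal CpG, and autosomal methylation lay between 78.4% and 81.5%. Promoter windows reached 1000 bp to either side of the annotated 5′ end of a gene, and tiles of 500 bp ran from 5000 bp upstream of it to the end of the gene. The cell types were compared window by window in a quasi-binomial logistic model that also took sex and assay into account, and p-values were adjusted over all windows of the genome-wide set. A window was called when the adjusted p was under 0.05 and the pooled levels differed by at least 20 percentage points. The exact permutation p printed beside it comes from exchanging libraries between the cell types, and 0.000155 is the smallest value that 8 against 8 libraries can give. The smallest value is 0.000583 for 7 against 7 informative libraries, 0.000777 for 5 against 8 and 0.00126 for 5 against 7. The labelled cell types were checked against marker genes. Promoters of 7 of 10 B cell markers were called higher in T cells and none higher in B cells, and those of 8 of 13 T cell markers were called higher in B cells and none higher in T cells. None of the 7 myeloid, 4 natural killer or 4 erythroid marker promoters was called. Of these, the myeloid marker *Lyz2* and the natural killer marker *Gzma* passed the adjusted p but not the limit (-18.0 and 17.3 points, B minus T). A comparison of B with T cells cannot show other cells that are few or present in both alike, so purity was not tested. Both CD8 marker promoters were called higher in B cells. Pooled levels in B and T cells were 86.5% and 60.8% at *Cd8a* and 90.1% and 35.2% at *Cd8b1*. Whether CD8 T cells were among the T cells was not tested. At *Ms4a1*, which encodes CD20, B cells had a pooled level of 13.8% and T cells of 94.2%, and the levels were 94.3% and 4.72% at *Cd3d*, a chain of the T cell receptor complex.

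At the annotated promoters, B and T cells differed past both thresholds only at *Igll1*, where T cells were higher. This 1 of 10 members called higher in T cells stood beside 0.404% of the 20067 promoters tested, and the 0 of 10 called higher in B cells beside 0.708%. *Ptcra* and *Dntt* were higher in B cells by 19.1 and 15.2 points with an adjusted p under 0.05, and fell short of the limit of 20 points. Without that limit, 3 of 10 members passed the adjusted p, against 10.5% of all promoters. The libraries of the cell types did not overlap at these 3 promoters, against 3.75% of all promoters. The other 7 promoters differed by 6.27 points or less, and their libraries overlapped.

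**Figure D1:**
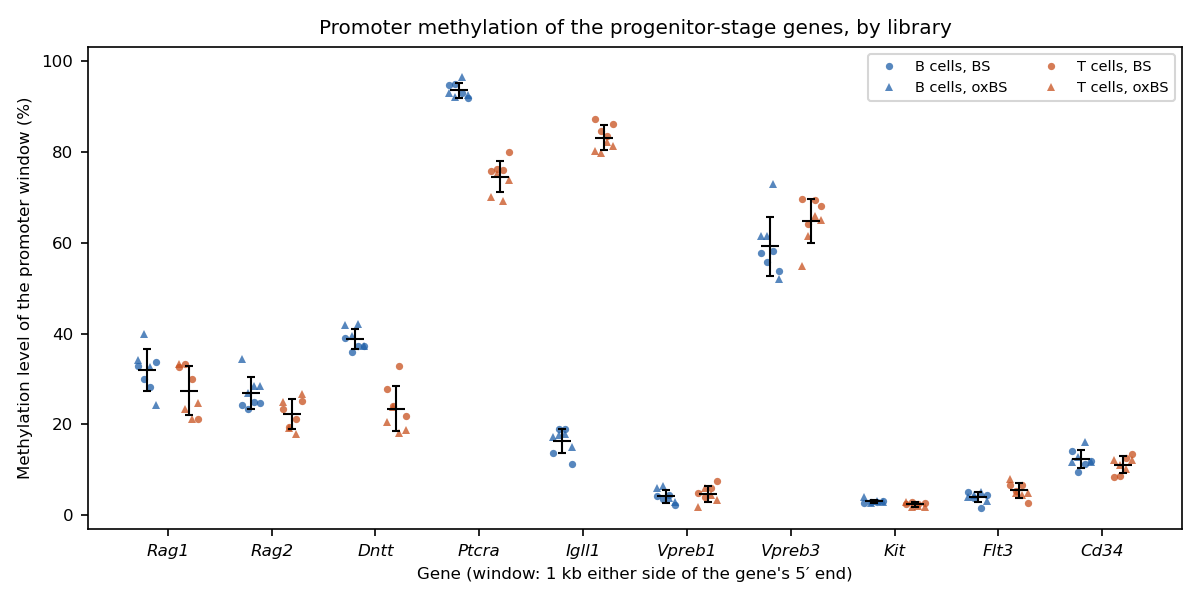
Methylation level (%) of the promoter window of each gene in every library, with B cells in blue, T cells in orange, BS libraries as circles and oxBS libraries as triangles. Black bars are the mean and SD of 8 libraries. The B cell libraries of *Igll1* sit between 11.4% and 19.0% and its T cell libraries between 79.7% and 87.2%, while the points of *Kit*, *Flt3*, *Vpreb1* and *Cd34* lie at 16.1% or below in both cell types.

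At the annotated 5′ ends, the promoters fell into a CpG-rich and a CpG-poor set. *Kit* with 128 CpGs, *Flt3* with 91 and *Vpreb1* with 70 had pooled levels between 2.45% and 5.39% in both cell types. Such levels are common at that CpG count. All 9525 promoters with 70 to 400 CpGs had quartiles of 2.21% and 9.06% in B cells (median 4.88%). In T cells the quartiles were 1.70% and 8.14% (median 4.19%). *Cd34*, with 40 CpGs, stood at 12.3% and 10.9% in B and T cells. The other 6 promoters held between 17 and 24 CpGs. Of all 2041 promoters with 15 to 24 CpGs, the median level was 86.4% in B cells and 86.1% in T cells, and 8.48% and 8.97% of them lay under 40%. In B cells 4 of these 6 members lay under 40%, *Rag1* at 31.5%, *Rag2* at 27.2%, *Dntt* at 38.8% and *Igll1* at 16.7%. In T cells 3 of 6 did, *Rag1* at 27.3%, *Rag2* at 22.2% and *Dntt* at 23.6%. The recombination genes were therefore low in both mature cell types for their CpG count, *Igll1* was low in B cells alone, and *Ptcra* and *Vpreb3* were above 40% in both. This order holds for the annotated 5′ ends only. Around the principal transcript starts described below, *Vpreb1* held 22 CpGs and *Vpreb3* 21, with mean levels of 50.6% and 30.2% in B cells and 93.3% and 90.9% in T cells.

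**Figure D2:**
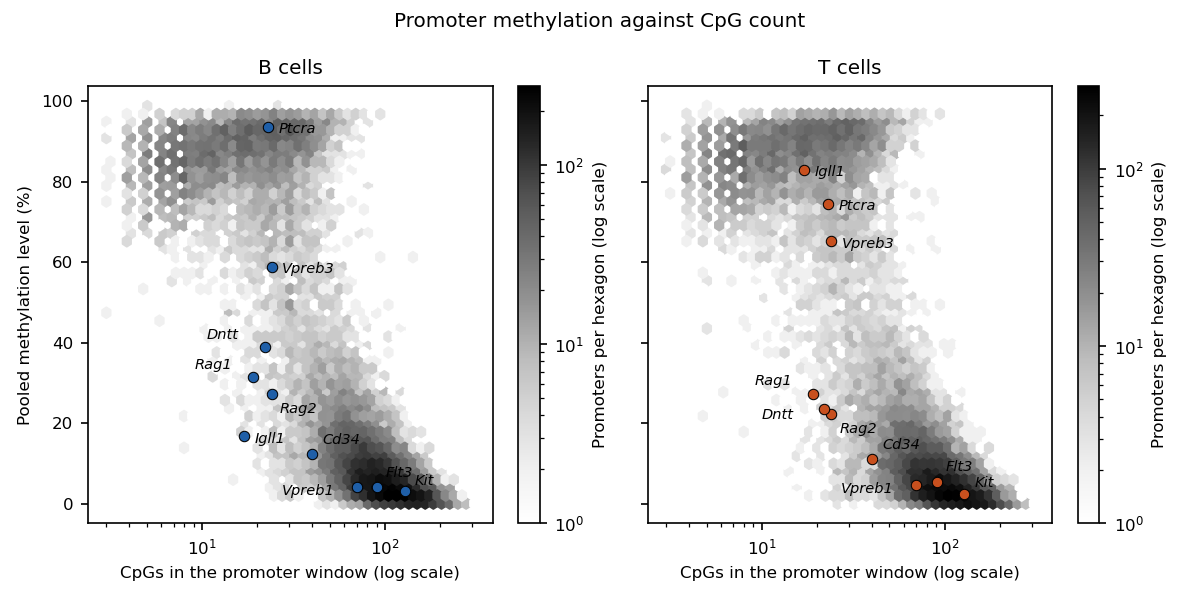
Pooled methylation level (%) against the number of CpGs in the promoter window (log scale), in B cells (left) and T cells (right). Grey hexagons count all 20067 promoters on a log scale and coloured points are the 10 genes. *Rag1*, *Rag2* and *Dntt* lie below most promoters of similar CpG count in both panels, and *Igll1* moves from 16.7% in B cells to 83.0% in T cells.

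*Igll1* (chr16:16860671-16863985, minus strand, 3 exons) encodes λ5, the constant-like part of the surrogate light chain. Over its promoter window the B cell libraries ranged from 11.4% to 19.0% with a median of 17.5%, and the T cell libraries from 79.7% to 87.2% with a median of 82.8%. All B cell libraries were low and all T cell libraries high, with a wide gap between them. The means were 16.4% ± 2.73 (SD, n = 8) in B cells and 83.1% ± 2.74 (SD, n = 8) in T cells, a pooled difference of 66.3 points in favour of T cells (adjusted p = 1.52e-09, exact permutation p = 0.000155). Between 79 and 161 calls stood behind each library. Of the 7 tiles tested, 6 were called, all of them higher in T cells (85.7% against 1.36% of all tiles). They were all 4 tested upstream of the gene and 2 of the 3 tested within it, and the 2 farthest upstream overlap *Vpreb1*. The tile that starts at the 5′ end and holds exon 1 went from 16.6% ± 4.93 (SD, n = 7) in B cells to 94.0% ± 2.81 (SD, n = 8) in T cells, and the tile 1000 bp upstream of the 5′ end from 18.4% ± 5.28 to 70.4% ± 6.93 (n = 8 each, SD). At the far end the difference was gone. The tile 2500 bp downstream, over part of exon 3, stood at 95.0% ± 1.67 in B cells and 96.3% ± 3.37 in T cells (n = 8 each, SD), with an adjusted p of 0.78 and an exact permutation p of 0.335.

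*Vpreb1* (chr16:16868403-16870843, minus strand, 2 exons) encodes the variable-like part of the same surrogate chain and lies next to *Igll1*. Its annotated 5′ end falls on a CpG-dense region that also holds the start of *Top3b*, and the window there showed 4.22% ± 1.42 in B cells and 4.80% ± 1.77 in T cells (n = 8 each, SD). The start of its APPRIS principal transcript, the main coding transcript of the annotation, lies 1588 bp further downstream. A window around that start read 50.6% ± 4.98 in B cells and 93.3% ± 2.16 in T cells (n = 8 each, SD), 42.7 points higher in T cells by pooled calls (adjusted p = 1.05e-08, exact permutation p = 0.000155). The B cell libraries ran from 44.8% to 60.7%, with a median of 48.7%, and the T cell libraries from 91.0% to 96.7%, with a median of 93.0%. Within it, the tile just upstream of the principal start (chr16:16869344-16869843) held only 3 CpGs and between 20 and 36 calls a library, and ranged from 0% to 13.8% in B cells (median 3.74%) and from 68.0% to 96.9% in T cells (median 83.9%). All 4 called tiles of *Vpreb1*, of 9 tested, were higher in T cells (44.4% against 1.36% of all tiles) and adjoined each other downstream of the dense region. Besides the tile above, they stood at 67.8% ± 8.32 and 90.2% ± 6.40 (n = 7 each, SD) 500 bp downstream of the annotated 5′ end, and at 64.4% ± 7.37 and 96.1% ± 2.24 (n = 8 each, SD) 2000 bp downstream. The tile 1500 bp downstream, with 3 CpGs, stood at 42.2% ± 6.08 (SD, n = 5) in B cells and 92.9% ± 4.06 (SD, n = 7) in T cells. The lowest tile, 500 bp upstream and within *Top3b*, stood at 0.528% ± 0.65 and 0.176% ± 0.193 (n = 8 each, SD). The last of them, over exon 2, shares bases with the tiles 5000 and 4500 bp upstream of *Igll1*, and the tile 1500 bp downstream with the former, so these are not separate observations.

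*Vpreb3* (chr10:75943057-75949657, plus strand) encodes a protein that associates with newly made immunoglobulin chains in precursor B cells. At its annotated 5′ end, B cells averaged 59.2% ± 6.43 and T cells 64.8% ± 4.89 (n = 8 each, SD), and the libraries overlapped (adjusted p = 0.183, exact permutation p = 0.0726). Without B cell library 9, which stood apart at 72.8%, the adjusted p was 0.0476. The principal transcript begins 5243 bp downstream, and there B cells were low. The window around this start read from 21.1% to 36.7% in B cells (median 30.2%) and from 87.9% to 94.1% in T cells (median 90.6%), a pooled difference of 60.8 points with T cells higher (adjusted p = 6.26e-09, exact permutation p = 0.000155). A run of 4 adjoining called tiles, from 4500 to 6000 bp downstream of the annotated 5′ end, covered the principal start and most of that transcript. The first of them, just before the principal start, stood at 54.9% ± 10.7 in B cells and 95.5% ± 1.95 in T cells (n = 8 each, SD). The tile over the principal start and exon 1 stood at 0.968% ± 1.40 in B cells and 80.8% ± 4.30 in T cells, and the next, in intron 1, at 32.8% ± 14.9 and 95.7% ± 1.67 (n = 8 each, SD). The tile over exon 2 (chr10:75949057-75949556), with 15 CpGs, stood at 7.05% ± 3.45 and 92.8% ± 1.80 (n = 8 each, SD), 86.4 points apart (adjusted p = 2.09e-09, exact permutation p = 0.000155). Upstream of this run, the tiles tested from 500 to 4000 bp downstream of the annotated 5′ end were above 80% in both cell types, as at 500 bp downstream with 91.5% ± 5.23 and 92.7% ± 2.10 (n = 7 each, SD). The lowest tile by the calls of both cell types together lay 5000 bp upstream, where *Gm867* is annotated, at 9.62% ± 5.77 (SD, n = 7) in B cells and 31.4% ± 10.7 (SD, n = 8) in T cells. It was called higher in T cells although the libraries overlapped (adjusted p = 0.00949, exact permutation p = 0.00109). Counting principal starts, the promoters of *Igll1*, *Vpreb1* and *Vpreb3* were called higher in T cells, where 0.488% of 20070 such promoters were called higher in T cells and 0.713% higher in B cells.

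The sequences before the principal starts of these genes are shown with the CpGs next to each start, which are few. Each holds the 250 bases that end just before the RefSeq transcription start (GRCm38.p6, equal to the mm10 reference), written 5′ to 3′ on the strand of the gene with CpGs in capitals. The entry for *Igll1* is chr16:16863986-16864235 (minus strand), for *Vpreb1* chr16:16869256-16869505 (minus strand) and for *Vpreb3* chr10:75948050-75948299 (plus strand).
*Igll1*: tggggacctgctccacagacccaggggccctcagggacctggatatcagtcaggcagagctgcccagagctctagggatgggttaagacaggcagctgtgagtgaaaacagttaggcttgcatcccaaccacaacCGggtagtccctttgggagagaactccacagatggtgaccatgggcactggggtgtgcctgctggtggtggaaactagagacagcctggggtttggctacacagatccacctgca
*Vpreb1*: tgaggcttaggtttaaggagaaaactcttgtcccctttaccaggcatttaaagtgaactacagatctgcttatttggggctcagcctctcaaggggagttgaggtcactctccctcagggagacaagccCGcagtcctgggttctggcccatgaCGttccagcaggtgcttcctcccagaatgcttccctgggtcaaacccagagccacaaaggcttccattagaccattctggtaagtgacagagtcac
*Vpreb3*: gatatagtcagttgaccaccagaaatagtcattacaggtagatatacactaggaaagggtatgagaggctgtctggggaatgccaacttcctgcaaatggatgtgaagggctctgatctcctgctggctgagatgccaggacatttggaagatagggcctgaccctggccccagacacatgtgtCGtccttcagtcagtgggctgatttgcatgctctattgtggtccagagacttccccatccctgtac
The single CpG before *Igll1*, at base 136, was methylated in 0% of 86 pooled calls in B cells and in 57.3% of 82 in T cells. Before *Vpreb1*, the CpG at base 130 stood at 4.23% and 90.3%, and that at base 155 at 5.26% and 80.4%. The single CpG before *Vpreb3*, at base 185, stood at 1.14% in B cells and 70.5% in T cells. All 10 genes had an entry in the RefSeq promoter table, and their 250 bases were searched on both strands for a RUNX motif (TGTGGT), an E-box (CAGCTG) and an EBF motif (TCCC and GGGA with 2 bases between), each counted on its own. The RUNX letters occurred once before *Igll1*, once before *Vpreb3* and 2 times before *Rag1*, and in 14% of all 32851 promoter entries. The E-box letters occurred once before *Igll1* and *Rag1* and 2 times before *Ptcra*, and in 13% of all entries. The EBF letters, present in 0.779% of all entries, were in none of the 10.

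*Ptcra* (chr17:46755663-46763712, minus strand, 4 exons), the T lineage counterpart of the surrogate light chain genes, had the opposite sign at its promoter and called tiles. Its promoter window ranged from 91.8% to 96.5% in B cells (median 92.8%) and from 69.2% to 79.9% in T cells (median 75.4%). Every B cell library lay above every T cell library. The means were 93.5% ± 1.67 and 74.5% ± 3.45 (n = 8 each, SD), with a pooled difference of 19.1 points (adjusted p = 1.42e-06, exact permutation p = 0.000155). Narrower windows passed the limit, with 27.3 points for 500 bp to either side of the 5′ end and 28.3 points for the 1000 bp upstream. All 7 called tiles, of 22 tested, were higher in B cells (31.8% against 2.56% of all tiles), by between 22.1 and 42.8 points. Methylation in T cells was nevertheless intermediate over the gene start, with 61.1% ± 9.50 in the tile 500 bp upstream against 96.0% ± 2.41 in B cells (n = 8 each, SD).

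The lowest methylation at *Ptcra* lay far upstream of the start. An enhancer active in thymocytes is known upstream of this gene, and its position was not matched to the tiles. The tile 5000 bp upstream (chr17:46768213-46768712) ranged from 71.9% to 86.4% in B cells (median 78.2%) and from 32.1% to 40.4% in T cells (median 35.7%). The next tile, 4500 bp upstream, ranged from 38.6% to 59.1% in B cells (median 52.5%) and from 12.9% to 22.3% in T cells (median 19.2%). The pooled differences were 42.8 points (adjusted p = 3.26e-07) and 31.9 points (adjusted p = 5.46e-06), each with an exact permutation p of 0.000155. This second tile was below its neighbours in both cell types, since the tile 3500 bp upstream stood at 93.3% ± 2.15 in B cells and 92.5% ± 5.71 in T cells (n = 8 each, SD). A long non-coding RNA gene, Gm26904, is annotated over all these tiles. The 250 bases before the RefSeq start of *Ptcra* (chr17:46763713-46763962, minus strand) are shown for the same reason as above, with the CpG in capitals.
*Ptcra*: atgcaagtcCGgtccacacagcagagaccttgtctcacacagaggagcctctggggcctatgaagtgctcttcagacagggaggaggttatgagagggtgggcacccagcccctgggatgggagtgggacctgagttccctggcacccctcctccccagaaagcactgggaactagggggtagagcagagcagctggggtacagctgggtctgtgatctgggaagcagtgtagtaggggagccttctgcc
The single CpG, at base 10, was methylated in 97.0% of 67 pooled calls in B cells and in 51.6% of 91 in T cells.

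**Figure D3:**
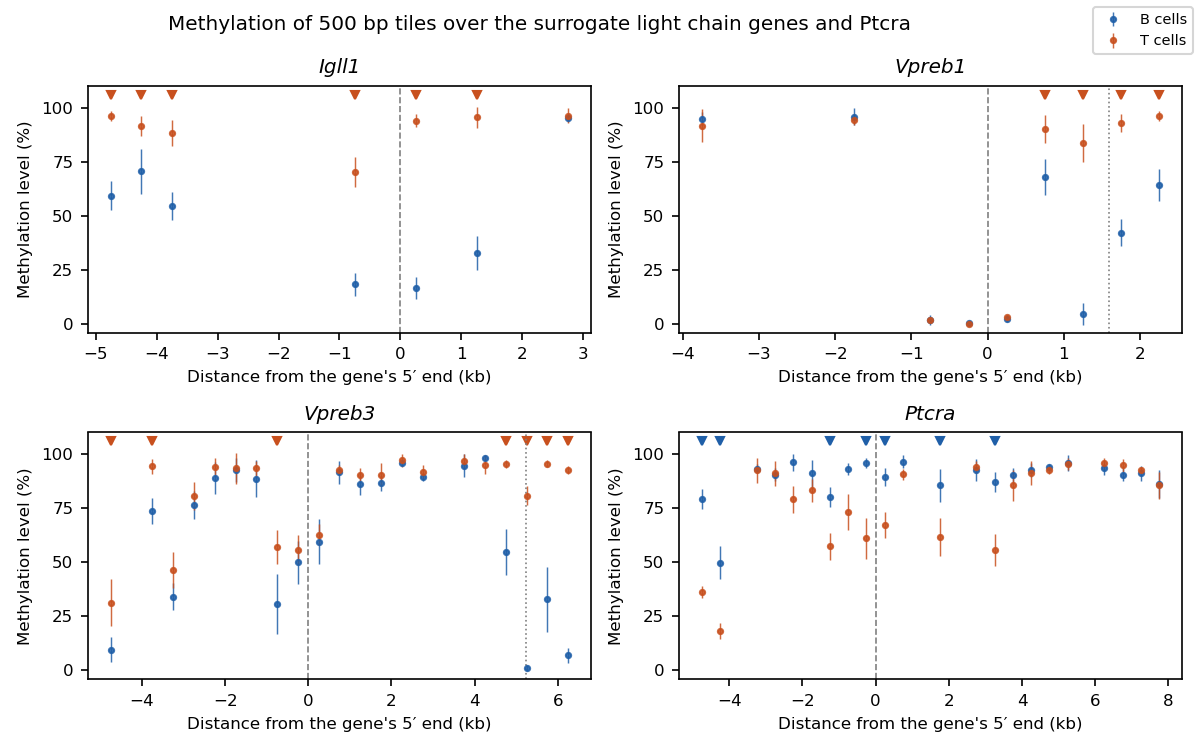
Methylation level (%) of 500 bp tiles against distance from the annotated 5′ end (kb) at *Igll1*, *Vpreb1*, *Vpreb3* and *Ptcra*, as mean ± SD over the libraries of B cells (blue) and T cells (orange). Dashed lines mark the annotated 5′ end, dotted lines the principal start where it differs, and triangles the called tiles in the colour of the higher cell type. B cells were lower at the called tiles of the first 3 genes and T cells at all 7 of *Ptcra*.

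*Rag1* (chr2:101638282-101649501, minus strand, 2 exons) and *Rag2* (chr2:101624718-101632529, plus strand, 3 exons) lie next to each other and are transcribed towards each other, and a longer gene, B230118H07Rik, overlaps both. Their starts were low in both cell types. The promoter window of *Rag1* ranged from 24.2% to 40% in B cells (median 32.7%) and from 21.2% to 33.3% in T cells (median 27.3%), and the cell types overlapped (adjusted p = 0.247, exact permutation p = 0.0999). That of *Rag2* ranged from 23.4% to 34.3% in B cells (median 26.0%) and from 18.0% to 26.8% in T cells (median 22.3%), with an adjusted p of 0.0842 and an exact permutation p of 0.0146. Over the 1000 bp upstream of *Rag2* alone, B cells were higher by 19.3 points (adjusted p = 0.00512 in the quasi-binomial model), under the limit of 20. The lowest tile of *Rag2*, at its start, stood at 5.59% ± 3.99 in B cells and 4.70% ± 3.02 in T cells (n = 8 each, SD). At *Rag1* the tile with the lowest level over both cell types together, 500 bp upstream, stood at 13.4% ± 3.47 and 11.2% ± 4.03 (n = 8 each, SD).

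Around these shared low points, single tiles of the *Rag* genes differed in either direction. T cells were lower in intron 1 of *Rag1*, in the tile 1000 bp downstream, with 7.40% ± 3.45 against 42.3% ± 13.7 in B cells (n = 7 each, SD), although only 3 CpGs lay there (difference 36.2 points, adjusted p = 0.000615, exact permutation p = 0.000583). B cells were lower 2000 bp upstream of *Rag1*, with 48.8% ± 7.11 against 84.9% ± 9.49 (n = 7 each, SD, difference 36.4 points with T cells higher, adjusted p = 0.000185, exact permutation p = 0.000583). At *Rag2*, B cells were higher 1000 bp upstream, with 57.2% ± 8.53 against 32.6% ± 7.37 (n = 8 each, SD, adjusted p = 0.00115, exact permutation p = 0.000311), although the highest T cell library, at 43.9%, passed the lowest B cell library, at 43.1%. B cells were lower in intron 2, 3500 bp downstream, with 13.8% ± 5.50 against 36.5% ± 7.61 (n = 8 each, SD, adjusted p = 0.00068, exact permutation p = 0.000155). These 4 calls rest on all the libraries together. In BS, oxBS, male or female libraries alone each kept its direction, and none passed the adjusted p, which ranged from 0.0637 to 0.33. A tile in the coding exon of *Rag1*, 5000 bp downstream and named after its values were seen, held 21 CpGs and was lower in B cells in every library, with a range of 61.0% to 73.3% against 90.6% to 98.6%. In all, 3 of 20 tiles of *Rag1* and 3 of 14 of *Rag2* were called, in both directions at each gene. The shares higher in B and in T cells were 5% and 10% at *Rag1* and 14.3% and 7.14% at *Rag2*. They stood against 2.56% and 1.36% of all tiles, and each rests on 1 or 2 tiles.

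*Dntt* (chr19:41029275-41059525, plus strand, 11 exons) had the most tiles at 20% or less in both cell types among the genes with CpG-poor promoters, and also the most tiles tested. It had 5 of 54, against 1 of 20 at *Rag1*, 1 of 14 at *Rag2* and 0 at *Ptcra*, *Igll1* and *Vpreb3*. Its promoter window ranged from 36.0% to 42.0% in B cells (median 38.2%) and from 18.0% to 32.9% in T cells (median 22.8%). B cells were higher in every library, with means of 38.8% ± 2.24 and 23.5% ± 4.93 (n = 8 each, SD), an adjusted p of 0.000735 and an exact permutation p of 0.000155. In intron 1, the tile 1500 bp downstream was almost without methylation, with 0.709% ± 1.35 in B cells and 0% in every T cell library, and 5 of the 54 tiles tested were within this limit in both cell types. Of the 5 called tiles, 3 near the start were higher in B cells and 2 further into intron 1 were higher in T cells. These were 5.56% and 3.70% of the tiles tested, against 2.56% and 1.36% of all tiles. The largest of each direction were the tile 500 bp downstream, with 50.3% ± 8.35 (SD, n = 5) against 9.84% ± 5.96 (SD, n = 7), and the tile 5000 bp downstream, with 32.9% ± 7.18 (SD, n = 5) against 63.5% ± 11.8 (SD, n = 8). Their exact permutation p-values were 0.00126 and 0.000777, their adjusted p-values 0.00305 and 0.00572, and neither held more than 36 calls in a library.

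**Figure D4:**
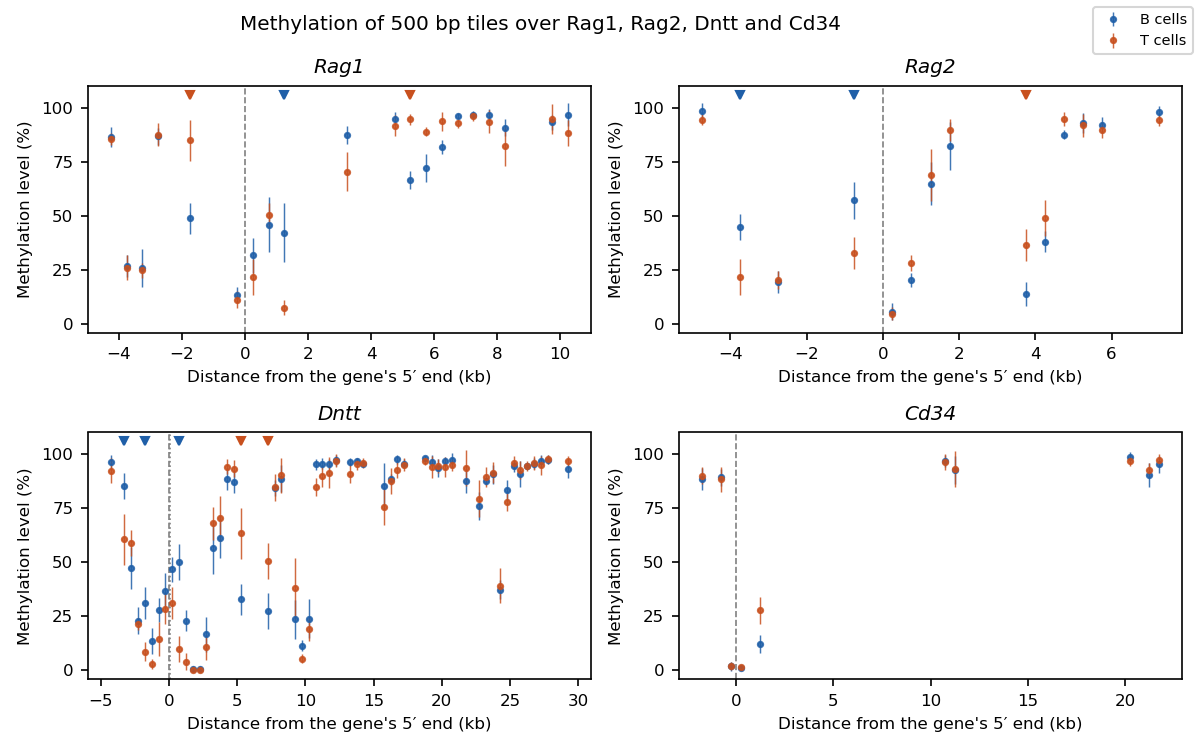
Methylation level (%) of 500 bp tiles against distance from the annotated 5′ end (kb) at *Rag1*, *Rag2*, *Dntt* and *Cd34*, as mean ± SD over the libraries of B cells (blue) and T cells (orange), with triangles over called tiles in the colour of the higher cell type. Both cell types dip at the gene starts, and *Dntt* reaches its lowest level 1500 bp downstream. *Cd34* has no called tile.

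*Kit* (chr5:75574916-75656722, plus strand, 21 exons), the receptor for stem cell factor, was unmethylated at its start in both cell types. The promoter window read 3.07% ± 0.416 in B cells and 2.44% ± 0.482 in T cells (n = 8 each, SD), and the lowest tile, 1000 bp downstream, had 0% in all T cell libraries and at most 1.49% in a B cell library. The contrast lay within intron 1. The tile 29500 bp downstream (chr5:75604416-75604915) ranged from 0% to 6.90% in B cells (median 1.47%) and from 86.8% to 94.0% in T cells (median 91.4%). No library came near those of the other cell type. The means were 2.89% ± 2.73 and 91.3% ± 2.49 (n = 8 each, SD), 88.8 points apart with T cells higher (adjusted p = 9.31e-09, exact permutation p = 0.000155), the widest difference of any tile at the 10 genes. The tile before it was also lower in B cells, with 59.5% ± 7.68 against 95.9% ± 2.78 (n = 8 each, SD).

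T cells were the lower cell type at other places in the same intron. The tile 23000 bp downstream ranged from 73.1% to 95.4% in B cells (median 80.3%) and from 32.9% to 46.3% in T cells (median 42.7%), with a difference of 39.1 points (adjusted p = 1.65e-05, exact permutation p = 0.000155). Closer to the start, the tiles 4500, 5000 and 7000 bp downstream were also called higher in B cells, by between 22.8 and 33.2 points. At 5000 bp, B cells averaged 84.9% ± 2.65 and T cells 51.5% ± 6.04 (n = 8 each, SD). Of 155 tiles tested over *Kit*, 4 were called higher in B cells, or 2.58% against 2.56% of all tiles, and 3 in T cells, or 1.94% against 1.36%, shares near the background. Of the same tiles, 131 in B cells and 133 in T cells stood at 80% or more.

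*Flt3* (chr5:147330741-147400489, minus strand, 24 exons), the receptor for FLT3 ligand on early progenitors, was likewise unmethylated at its start, with 0.438% ± 0.337 in B cells and 0.759% ± 0.627 in T cells in the first tile (n = 8 each, SD). Over the gene body the cell types were low at different introns. In intron 9, the tile 41500 bp downstream (chr5:147358490-147358989) ranged from 88.3% to 99.1% in B cells (median 97.3%) and from 2.88% to 11.7% in T cells (median 8.98%). In intron 20, the tile 61000 bp downstream (chr5:147338990-147339489) ranged from 0% to 8.64% in B cells (median 2.30%) and from 65.2% to 86.7% in T cells (median 79.4%). B cells were higher by 87.5 points in the former (adjusted p = 2.66e-08) and lower by 75.8 points in the latter by the pooled calls (adjusted p = 3.96e-08), each with an exact permutation p of 0.000155. The tiles 45000 and 48000 bp downstream, named after their values were seen, repeated this alternation over a short distance. The first, over exon 13 and its flanking introns, stood at 85.2% ± 6.25 in B cells and 28.1% ± 11.4 in T cells, and the second, in intron 15, at 31.4% ± 8.28 and 81.8% ± 9.30 (n = 8 each, SD).

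Both cell types also shared unmethylated tiles inside *Flt3*. The tile 33500 bp downstream, over exon 9, stood at 1.59% ± 1.27 and 0.50% ± 0.709 in B and T cells, and the tile 59000 bp downstream, over exon 20, at 1.56% ± 1.52 and 0.421% ± 0.645 (n = 8 each, SD). In all, 9 of 114 tiles were at 20% or less in both cell types. B cells were called higher in 2 tiles, or 1.75% against 2.56% of all tiles, a share under the background. T cells were called higher in 6, or 5.26% against 1.36%. The tile of intron 20 follows 1 tile after such a shared stretch, since 60500 bp downstream B cells averaged 0.82% ± 1.34 and T cells 9.17% ± 7.54 (n = 8 each, SD).

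The 3 intronic tiles with the widest differences are shown by the 300 bases of each that hold the most CpGs, from the mm10 (GRCm38) reference, 5′ to 3′ on the strand of the gene, with CpGs in capitals. They are chr5:75604521-75604820 (plus strand) in intron 1 of *Kit*, chr5:147358614-147358913 (minus strand) in intron 9 of *Flt3* and chr5:147338990-147339289 (minus strand) in intron 20 of *Flt3*.
*Kit* intron 1: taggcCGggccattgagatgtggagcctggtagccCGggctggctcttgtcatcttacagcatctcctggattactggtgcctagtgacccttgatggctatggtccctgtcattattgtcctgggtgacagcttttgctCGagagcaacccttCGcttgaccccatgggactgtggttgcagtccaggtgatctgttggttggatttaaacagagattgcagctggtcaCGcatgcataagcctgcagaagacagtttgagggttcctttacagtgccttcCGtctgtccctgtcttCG
*Flt3* intron 9: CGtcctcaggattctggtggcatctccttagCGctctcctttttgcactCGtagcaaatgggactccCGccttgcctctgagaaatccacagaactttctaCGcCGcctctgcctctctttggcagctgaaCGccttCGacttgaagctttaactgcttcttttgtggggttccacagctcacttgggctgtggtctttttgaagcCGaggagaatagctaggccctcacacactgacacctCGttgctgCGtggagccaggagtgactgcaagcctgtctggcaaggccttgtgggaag
*Flt3* intron 20: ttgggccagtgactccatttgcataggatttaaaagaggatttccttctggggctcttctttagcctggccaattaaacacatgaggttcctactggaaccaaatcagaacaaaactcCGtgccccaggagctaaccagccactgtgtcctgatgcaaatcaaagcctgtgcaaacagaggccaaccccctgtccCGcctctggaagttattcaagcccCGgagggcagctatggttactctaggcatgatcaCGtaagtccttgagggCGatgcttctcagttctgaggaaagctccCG
All CpGs of a stretch showed the same contrast. By pooled calls, the 7 CpGs in *Kit* were at 8.14% or less in B cells and at 73.9% to 99.0% in T cells. The 11 CpGs in intron 9 of *Flt3* were at 90.2% or more in B cells and at 19.7% or less in T cells. The 6 CpGs in intron 20 were at 13.4% or less in B cells and at 79.3% to 91.5% in T cells. Each of these CpGs had at least 39 pooled calls per cell type.

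**Figure D5:**
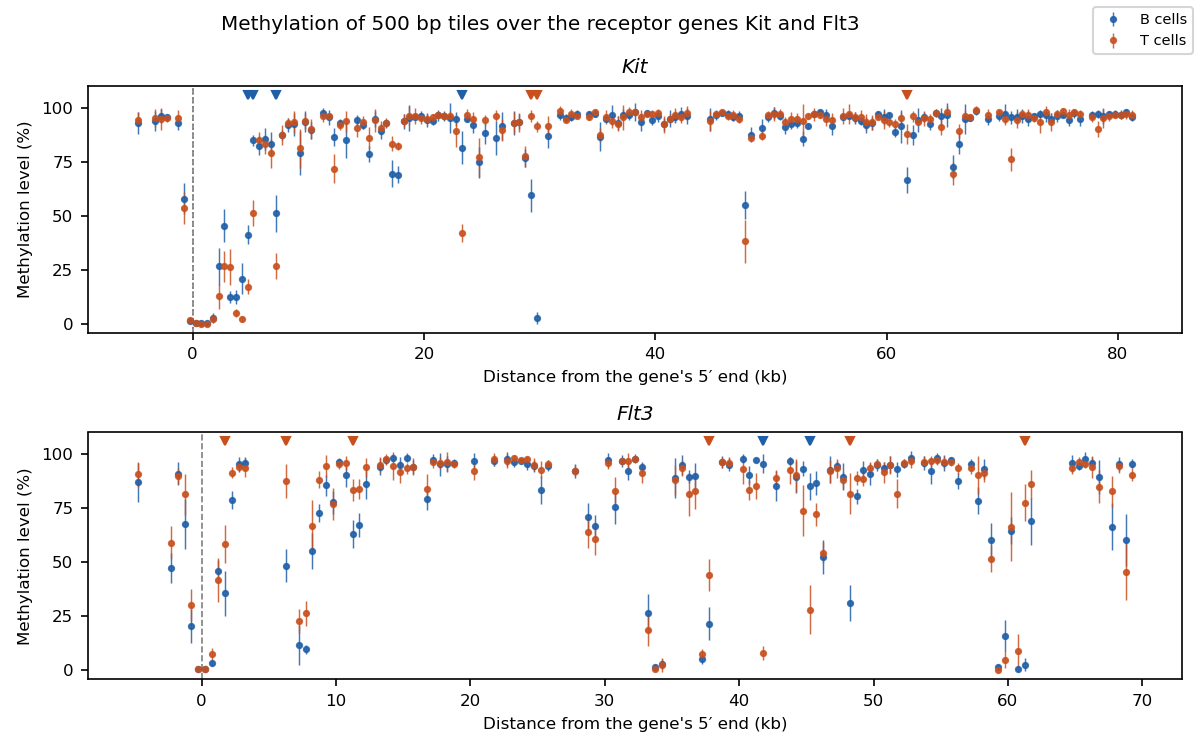
Methylation level (%) of 500 bp tiles against distance from the annotated 5′ end (kb) at *Kit* and *Flt3*, as mean ± SD over the libraries of B cells (blue) and T cells (orange), with triangles over called tiles in the colour of the higher cell type. Both genes are near 0% at the start, and single tiles of intron 1 of *Kit* and of introns 9 and 20 of *Flt3* separate the cell types while most of the gene body lies above 80% in both.

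*Cd34* (chr1:194938819-194961279, plus strand, 8 exons) had no called tile among the 10 tested. Its first tile, with 26 CpGs, stood at 1.33% ± 1.26 in B cells and 1.37% ± 0.84 in T cells (n = 8 each, SD, adjusted p = 0.993, exact permutation p = 0.943). The tile 1000 bp downstream in intron 1 was lower in B cells, at 12.1% ± 4.11 (SD, n = 8) against 27.8% ± 6.29 (SD, n = 7), with libraries that did not overlap, but its difference of 14.9 points by pooled calls was under the limit (adjusted p = 0.0233, exact permutation p = 0.000155). Few tiles of *Cd34* could be tested, as 55 were laid and most held too few CpGs or calls.

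Over all 10 genes, 426 of 592 tiles could be tested. B cells were called higher in 19 of them, or 4.46%, against 2.56% of all 1267446 tiles, and T cells in 31, or 7.28%, against 1.36%. The libraries did not overlap in 59 tiles, or 13.8%, against 4.73% of all tiles, and 43 of the 50 called tiles were among them. *Igll1*, *Vpreb1* and *Vpreb3* supplied 6, 4 and 7 of the 31 tiles higher in T cells and none of those higher in B cells. Of the 7 at *Vpreb3*, 3 lay upstream of the annotated 5′ end and 4 in the run around the principal start. The share of tested tiles called was 85.7% at *Igll1*, 44.4% at *Vpreb1*, 33.3% at *Vpreb3*, 31.8% at *Ptcra*, 21.4% at *Rag2*, 15% at *Rag1*, 9.26% at *Dntt*, 7.02% at *Flt3*, 4.52% at *Kit* and 0% at *Cd34*. The median tile of the 10 genes was at 91.7% in B cells and 92.6% in T cells, beside 93.2% and 92.4% over all tiles. Tiles next to each other share reads and overlapping tiles share CpGs, so the counts are not counts of independent events.

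Sex and assay were compared in the same way. At an adjusted p under 0.05 and a limit of 10 points, 0 of 10 promoters differed between the sexes and 0 of 10 between BS and oxBS libraries, against 0% of all promoters in each comparison. The assay term takes both cell types together, so differences of opposite sign in B and T cells offset each other in it. BS minus oxBS was -2.62 points in B cells and 6.53 in T cells at *Dntt*, and -4.65 and 4.90 at *Vpreb3*. The signs were alike in the cell types at *Flt3*, *Cd34* and *Ptcra*. By unadjusted p under 0.05 in the quasi-binomial model, 1 member (*Rag1*, males higher by 5.49 points, p = 0.0295) passed for sex and none for assay, and 824 and 1183 of all promoters did. Within a cell type, the 4 BS and 4 oxBS libraries did not overlap in 3 of 20 groups (each a promoter in a cell type), against 5.68% of all such groups, and the 4 male and 4 female libraries in 0 of 20, against 2.48%. In T cells, BS libraries were the higher at *Igll1*, with 83.5% to 87.2% against 79.7% to 82.1%, and at *Ptcra*, with 75.7% to 79.9% against 69.2% to 75%. The same direction held in T cells over all autosomal calls, with 79.4% to 79.6% against 78.4% to 78.9%. The direction was therefore not particular to these promoters. By pooled calls the T cell BS libraries were higher by 4.69 points at *Igll1* and 4.75 points at *Ptcra*, a wider gap than over all autosomal calls. Whether the gap at these promoters exceeds the general one was not tested. In B cells, oxBS libraries were the higher at *Rag2*, with 27.0% to 34.3% against 23.4% to 25%. Over all autosomal calls the B cell libraries overlapped, with 79.8% to 81.5% in oxBS and 79.4% to 80.7% in BS. No interaction of cell type with sex or assay passed after adjustment at any of the 20067 promoters, while 650 passed unadjusted for sex and 2109 for assay. At an unadjusted p under 0.05, chance alone gives a share of about 0.05. The count for sex lay under that share and the count for assay above it. The smallest unadjusted interaction p of the members, 0.0144, was that of *Dntt* with assay. There B cells were higher by 10.5 points in BS and by 19.7 points in oxBS libraries. The other genes of the early pathways were examined as background. Of 18 transcription factors of stem cells and progenitors, such as *Gata2*, *Meis1* and *Tcf3*, no promoter was called, and the median level was 4.08% in B cells and 5.06% in T cells. Of 13 recombination and end-joining genes, such as *Prkdc* and *Lig4*, none was called either, with medians of 7.46% and 7.57%. Of 13 surface receptors, 2 were called higher in B cells and none higher in T cells, where 0.708% and 0.404% of all promoters were. They were *Slamf1*, a receptor of the SLAM family, with 48.9% ± 7.06 in B cells and 28.9% ± 12.1 in T cells (n = 8 each, SD, adjusted p = 0.0125, exact permutation p = 0.0014), and *Il2ra*, the α chain of the interleukin-2 receptor, with 32.7% ± 7.28 and 12.4% ± 3.46 (n = 8 each, SD, adjusted p = 0.000249, exact permutation p = 0.000155). The pooled differences were 21.0 points at *Slamf1* and 20.4 points at *Il2ra*, just past the limit. Closest under it were *Ly6d* and *Csf2rb*, higher in T cells (-18.1 and -16.9 points, B minus T), and *Il7r*, higher in B cells (16.9 points), all with an adjusted p under 0.05. The median difference of the 13 was -0.28 points. Over tiles, the transcription factor genes were called higher in B cells in 3.61% and in T cells in 5.62% of 2437, the receptor genes in 7.46% and 3.26% of 429, and the recombination genes in 2.77% and 1.07% of 1118.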

How the data were processed

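WGBS libraries of CD43- B cells and CD4+CD62L+ T cells were used. Per the labels and the study's methods, reads were trimmed with Trim Galore 0.6.0 and mapped to mm10 with Bismark 0.20.0 at default settings, with SAMtools 1.3.1, and only alignments with a mapping quality (MAPQ) of 10 or more gave calls. The authors deposited counts of unmethylated and methylated calls per CpG and library, with strands combined, no normalization and 1-based positions. Positions that are not reference CpGs (between 43070 and 59226 a library) were left out.

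Calls were pooled over windows placed with GENCODE vM21. Libraries with 20 or more calls in a window were informative, and a window needed at least 3 CpGs and 5 informative libraries per cell type. Libraries that were not informative were left out of the fit of that window. A quasi-binomial logistic model with dispersion held at 1 or more and sex and assay as covariates was fitted to all windows of autosomal protein-coding genes, with Benjamini-Hochberg adjustment, and checked on simulated data. Exact permutation tests are two-sided. Calls of 1 read are not independent, and the number of calls sets only the counting error. Every gene was reported with its called tile of largest difference in each direction, the called tiles adjoining these, and its lowest tile by the pooled calls of both cell types. Other tiles with printed values were picked after these were seen. For each background list up to 3 called promoters of largest difference were named. The genes, lists and tests were chosen with earlier results of these data known. Alternatives covered the test, dispersion, covariates, each assay and sex alone, call and CpG minimums, the mean of CpG fractions in place of pooled calls, limits, window lengths and starts, and each library left out. Python 3.11.15, NumPy 2.4.6, SciPy 1.17.1, pandas 2.3.3 and Matplotlib 3.10.9 were used.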

Additional observations from a re-analysis of the deposited data

Results flagged for a closer look

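Single libraries stood apart from the other 7 of their cell type by Dixon's criterion in 6 of 84 groups examined (10 promoters, 2 principal starts and the named tiles), or 7.14%, where chance gives about 1 in 20. The promoter of *Rag2* had 1 B cell library at 34.3%, with the others between 23.4% and 28.4%. The promoter of *Vpreb3* had 1 B cell library at 72.8%, with the others between 52.1% and 61.5%. The promoter of *Kit* had 1 B cell library at 4.05%, with the others between 2.77% and 3.11%. In intron 2 of *Rag2*, 3500 bp downstream, 1 B cell library stood at 1.59% and the others between 10.8% and 18.5%, so the library that stood apart lay further from the T cells. The lowest tile of *Kit*, 1000 bp downstream, had 1 B cell library at 1.49% with the others at 0.585% or less. In intron 1 of *Kit*, 23000 bp downstream, 1 T cell library stood at 32.9% with the others between 40.8% and 46.3%. The libraries that stood apart at the promoters of *Rag2* and *Kit* and in the lowest tile of *Kit* are the same library, B cell library 2. No named call was lost when such a library was left out. Without the library that stood apart at the promoter of *Vpreb3* (B cell library 9), the difference there went from -6.27 to -7.93 points (B minus T) and the adjusted p of the quasi-binomial model from 0.183 to 0.0476, so that this promoter also passed the adjusted p, but not the limit of 20 points.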

How the results depend on the processing

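None of the 25 named calls changed sign under the alternatives run for it (711 values), and the other called tiles were followed by their counts alone. Named differences that were not called changed sign in 18 values of 6 windows, to 0.822 points at most. They include the promoters of *Rag2*, *Kit* and *Cd34* with 500 bp to either side of the start (-0.36, -0.10 and -0.10 points, B minus T) and that of *Vpreb1* in oxBS libraries alone (0.82 points). With the 1 kb upstream alone, the difference at *Rag2* went from 4.98 to 19.3 points, past the adjusted p but not the limit, and that at *Vpreb3* from -6.27 to -13.4 points, past neither. With the mean of the CpGs' fractions in place of pooled calls, the tile 2000 bp upstream of *Rag1* went from -36.4 to -26.5 points, the one named call of 25 that moved by more than the SD between libraries under that alternative. Leaving out each of the 16 libraries in turn kept 1 member promoter called throughout, between 18 and 21 tiles higher in B cells (19 with all libraries) and between 25 and 32 higher in T cells (31), and none of the 25 named calls was lost in 385 such values. The number of promoters called rose from 1 to 3 at a limit of 10 points and at the principal starts, and to 2 with oxBS libraries alone, with 500 bp to either side of the start, and with the 1 kb upstream alone. Tiles higher in B and T cells numbered 36 and 44 at a limit of 10 points and 10 and 18 at 30 points (19 and 31 at 20 points), and 26 and 30 with tiles of 250 bp, so the balance of directions moved with the limit and the tile length. With 4 libraries per cell type, tiles higher in B and T cells numbered 6 and 15 in BS, 8 and 16 in oxBS, 6 and 14 in male and 8 and 13 in female libraries alone, where fewer libraries enter by construction. Tiles of 1000 bp gave 11 and 16. A minimum of 40 calls left 14 and 16, so the balance of directions moved there as well. At that minimum 15 of the 25 named calls could be tested, and none of these was lost. The 0 promoters that differed by sex or assay stayed at 0 with the dispersion not held at 1 or more and in either cell type alone. Other limits could not change this count, as no promoter passed the adjusted p. Of the named calls, those of *Igll1*, of *Ptcra* and of the widest tiles of *Kit* (29500 bp), *Flt3* and *Vpreb3* were made under every alternative that could be fitted. In all, 13 of the 25 named calls were lost in 42 values. All but 1 of these came at the limit of 30 points or in comparisons of 4 against 4 libraries, and the calls lost include every named called tile of *Rag1*, *Rag2* and *Dntt* and that of *Kit* 23000 bp downstream. The tile 5000 bp upstream of *Vpreb3* was the exception, lost with CpGs of 5 or more calls at an adjusted p of 0.0585. No paired analysis was possible because the library numbers in the labels are unique and pair no B cell with a T cell library. Depth, between 5.83 and 8.07 calls per CpG, leaves single CpGs of a library unresolved, so levels rest on windows.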
